A study of Mus musculus with 11 samples.

Results

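Opioid and cannabinoid signaling in mouse dorsal root ganglia (DRGs) was examined through 6 genes, taken by symbol as 6 of the 36670 rows of the gene table. *Oprm1*, *Oprd1*, *Oprk1* and *Oprl1* encode the mu, delta, kappa and nociceptin receptors, *Cnr1* encodes the cannabinoid receptor CB1, and *Penk* encodes proenkephalin, the precursor of the enkephalins. The study sequenced DRG RNA from WT mice and from mice lacking *Gpr37l1* (KO), a G protein-coupled receptor gene of satellite glial cells, with or without paclitaxel (PTX), a chemotherapy drug that causes painful neuropathy. Of the 11 libraries, 3 came from WT mice labelled as control and 3 from WT mice 4 weeks after PTX. Another 3 came from KO control mice and 2 from KO mice 4 weeks after PTX. Each group held libraries labelled male and female. The KO allele is a germline deletion carried by every cell, so no group isolates the loss from satellite glia, and the line (B6;129S5-Gpr37l1 tm1Lex) was kept with littermates on a C57BL/6 background. The dose and schedule of PTX, the age of these mice and a vehicle for the control mice were not given in the sources used here for the sequenced ganglia. Nothing says how many animals entered a library, so p-values measure the spread between libraries.

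All of the receptors encoded by these genes couple to Gi/o proteins, which inhibit adenylyl cyclase, close presynaptic calcium channels and open potassium channels. On the central and peripheral endings of sensory neurons they reduce transmitter release, which is the basis of opioid and cannabinoid analgesia outside the brain. Enkephalins cut from proenkephalin act mainly on the delta and mu receptors, dynorphins on the kappa receptor, and nociceptin on the receptor encoded by *Oprl1*. The endocannabinoids anandamide and 2-arachidonoylglycerol are made on demand from membrane lipids and act on CB1.

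The coding sequence of *Penk* shows what the measured transcript specifies. In the GENCODE M21 transcript used (GRCm38, minus strand of chromosome 4), 268 codons precede the stop, and 7 enkephalin units were found in them, 6 of Met-enkephalin and 1 of Leu-enkephalin. All 7 lie in exon 2 and are written in 6 different 15-base spellings. Each line below holds 1 unit in capitals with 2 codons on either side in lower case, and those flanks matter because prohormone convertases cut at pairs of basic residues.
*Penk* unit 1, Met-enkephalin, chr4:4134328-4134354: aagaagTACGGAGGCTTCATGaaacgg
*Penk* unit 2, Met-enkephalin, chr4:4134307-4134333: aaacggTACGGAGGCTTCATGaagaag
*Penk* unit 3, Met-enkephalin, chr4:4134220-4134246: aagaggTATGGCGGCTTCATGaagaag
*Penk* unit 4, Met-enkephalin, chr4:4134067-4134093: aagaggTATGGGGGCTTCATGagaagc
*Penk* unit 5, Met-enkephalin, chr4:4133995-4134021: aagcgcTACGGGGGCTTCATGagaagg
*Penk* unit 6, Leu-enkephalin, chr4:4133935-4133961: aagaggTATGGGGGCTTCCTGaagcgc
*Penk* unit 7, Met-enkephalin, chr4:4133842-4133868: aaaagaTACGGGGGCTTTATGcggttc
All 7 units follow a pair of basic codons. Such a pair also comes after 5 of them, while units 4 and 7 run on into other codons, as in the known extended forms of Met-enkephalin. A count on *Penk* therefore measures a message that can give several enkephalin peptides, and it says nothing of how much peptide was cut.

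The 4 opioid receptor genes are close relatives, which bears on how reads can be told apart between them. Pairwise identity of their coding sequences ranged from 58.4% (*Oprm1* with *Oprl1*) to 65.4% (*Oprm1* with *Oprd1*), against 41.6% to 42.6% for each of them with *Cnr1*. Over 1048 coding positions aligned without a gap in all 4, the same base stood in 438. The most alike 60-base stretch, which lies in coding exons, is shown with the bases shared by all 4 genes in capitals.
*Oprm1*, chr10:6829014-6829073, plus strand: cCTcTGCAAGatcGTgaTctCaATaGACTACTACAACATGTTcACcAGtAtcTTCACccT
*Oprd1*, chr4:132117280-132117339, minus strand: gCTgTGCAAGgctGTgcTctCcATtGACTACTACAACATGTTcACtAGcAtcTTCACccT
*Oprk1*, chr1:5598719-5598778, plus strand: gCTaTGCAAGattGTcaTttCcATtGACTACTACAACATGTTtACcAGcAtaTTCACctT
*Oprl1*, chr2:181718506-181718565, plus strand: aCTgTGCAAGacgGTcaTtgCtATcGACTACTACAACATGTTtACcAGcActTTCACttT
Even here 42 of the 60 bases were shared. The longest run of identical bases between any pair of the opioid receptor genes was 25, between *Oprk1* and *Oprl1*.

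By GRCm38 coordinates, *Oprm1* spans chr10:6758506-7038198 on the plus strand with 31 annotated transcripts, and within it lie the antisense gene *Gm10945* and part of the antisense gene *Ipcef1*, which overlaps it by 152403 bases. *Oprd1* spans chr4:132110726-132144486 on the minus strand with 1 transcript. *Oprk1* spans chr1:5588466-5606131, *Oprl1* spans chr2:181715016-181720985 and *Cnr1* spans chr4:33924593-33948831, all on the plus strand with no overlapping gene. *Penk* spans chr4:4133531-4138819 on the minus strand and shares 499 bases with the antisense transcript *A830012C17Rik*, which stood at 0 to 0.06 FPKM (fragments per kilobase of gene, scaled for depth). Whether the counting used strand was not given in the sources used here.

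Total counts ranged from 52735648 to 80348732 per library, with both KO PTX libraries in the lower part of that range. *Gpr37l1* stood at 14.6 to 35.7 FPKM in WT and 0.21 to 1.15 FPKM in KO libraries, so each library matched its genotype label. Within KO, it was 0.21 to 0.29 FPKM in control libraries and higher in PTX libraries 2 and 3, at 0.60 and 1.15 FPKM. Markers of sensory neurons (9 of 9), satellite glia (5 of 5) and myelinating Schwann cells (5 of 5) were above 1 FPKM in every library. Apart from the rest stood 3 libraries. WT control 1 gave 3.06% of its counts to the rRNA-like genes *CT010467* and *Gm23935*, against 0.183% to 0.588% elsewhere. KO PTX 3 had the highest sum of 8 spinal cord markers. KO control 3, labelled female, had *Xist* at 0.05 and *Ddx3y* at 0.02 FPKM, marking neither sex, whereas *Xist* in the other female libraries was 8.12 to 9.13 FPKM.

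In WT control DRGs, *Cnr1*, *Oprl1* and *Penk* were the abundant members and *Oprd1*, *Oprm1* and *Oprk1* the scarce ones. In FPKM, *Cnr1* averaged 5.08 ± 1.67, *Oprl1* 4.79 ± 0.939, *Penk* 3.68 ± 0.956, *Oprd1* 0.553 ± 0.0577, *Oprm1* 0.193 ± 0.0462 and *Oprk1* 0.187 ± 0.145 (mean ± SD, n = 3). Among the 29166 genes above 0 in these libraries, those levels lie at the 75.1, 74.2, 70.6, 49.1, 38.2 and 37.9 percentile in the same order. *Penk* was above *Oprd1* in 3 of 3 libraries, by a mean ratio of 5.67, and *Oprd1* was above *Oprm1* in 3 of 3, by 2.24, on the lengths behind the FPKM. The second of these pairs turned with the gene length used, as given further on. The other neighbours in the order (*Cnr1* and *Oprl1*, *Oprl1* and *Penk*, *Oprm1* and *Oprk1*) changed places between libraries and did not differ beyond their spread. With 3 libraries the exact sign-flip test cannot go below p = 0.25, the value it gave for both pairs that held.

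Over all 11 libraries, in FPKM, the scarce end took another order. *Penk* exceeded *Oprd1* in 11 of 11 libraries (exact sign-flip test, p = 0.000977, the smallest it can give, adjusted p = 0.00488 over 5 pairs). *Cnr1* exceeded *Oprl1* in 10 of 11 by a ratio of 1.18 (exact p = 0.0195, adjusted p = 0.0326), and *Oprk1* exceeded *Oprm1* in 10 of 11 by 1.73 (exact p = 0.00781, adjusted p = 0.0195). *Oprl1* exceeded *Penk* in 7 of 11 (exact p = 0.0918) and *Oprd1* exceeded *Oprk1* in 7 of 11 (exact p = 0.0664), so neither of those pairs was separated. Levels between genes depend on the gene length behind the FPKM. The ratio of counts to FPKM implied a length of 8.86 kb for *Oprm1*, which is 3.66 times its longest annotated transcript (2.42 kb), and 9.98 kb for *Oprk1*, 2.13 times its longest (4.675 kb). For the other 4 members this ratio was 1.08 to 1.31, so the FPKM of *Oprm1* and *Oprk1* is spread over a longer gene model than theirs. Levels were therefore also computed from the counts per kilobase of the longest annotated transcript with depth scaled, an alternative added after the implied lengths were seen. The same counts were divided by shorter lengths, so this scale by construction raises *Oprm1* and *Oprk1* against the other 4 members. Any reads from outside that transcript would set *Oprm1* and *Oprk1* too high, so this scale cannot decide their place in the order. On that scale *Oprm1* averaged 0.706 ± 0.165 and *Oprd1* 0.601 ± 0.0620 in WT controls (SD, n = 3), with *Oprm1* the higher in 2 of 3 libraries and in 6 of 11 over all groups. *Cnr1* then exceeded *Oprl1* in 8 of 11 libraries (exact sign-flip test, p = 0.195) and *Oprk1* exceeded *Oprm1* in 8 of 11 (exact p = 0.39), so neither of those steps held. *Penk* stayed above the 3 scarce receptor genes, by a ratio of 5.64 over *Oprm1* in 3 of 3 WT controls and of 5.52 over *Oprk1* in 11 of 11 libraries.

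**Figure D1:**
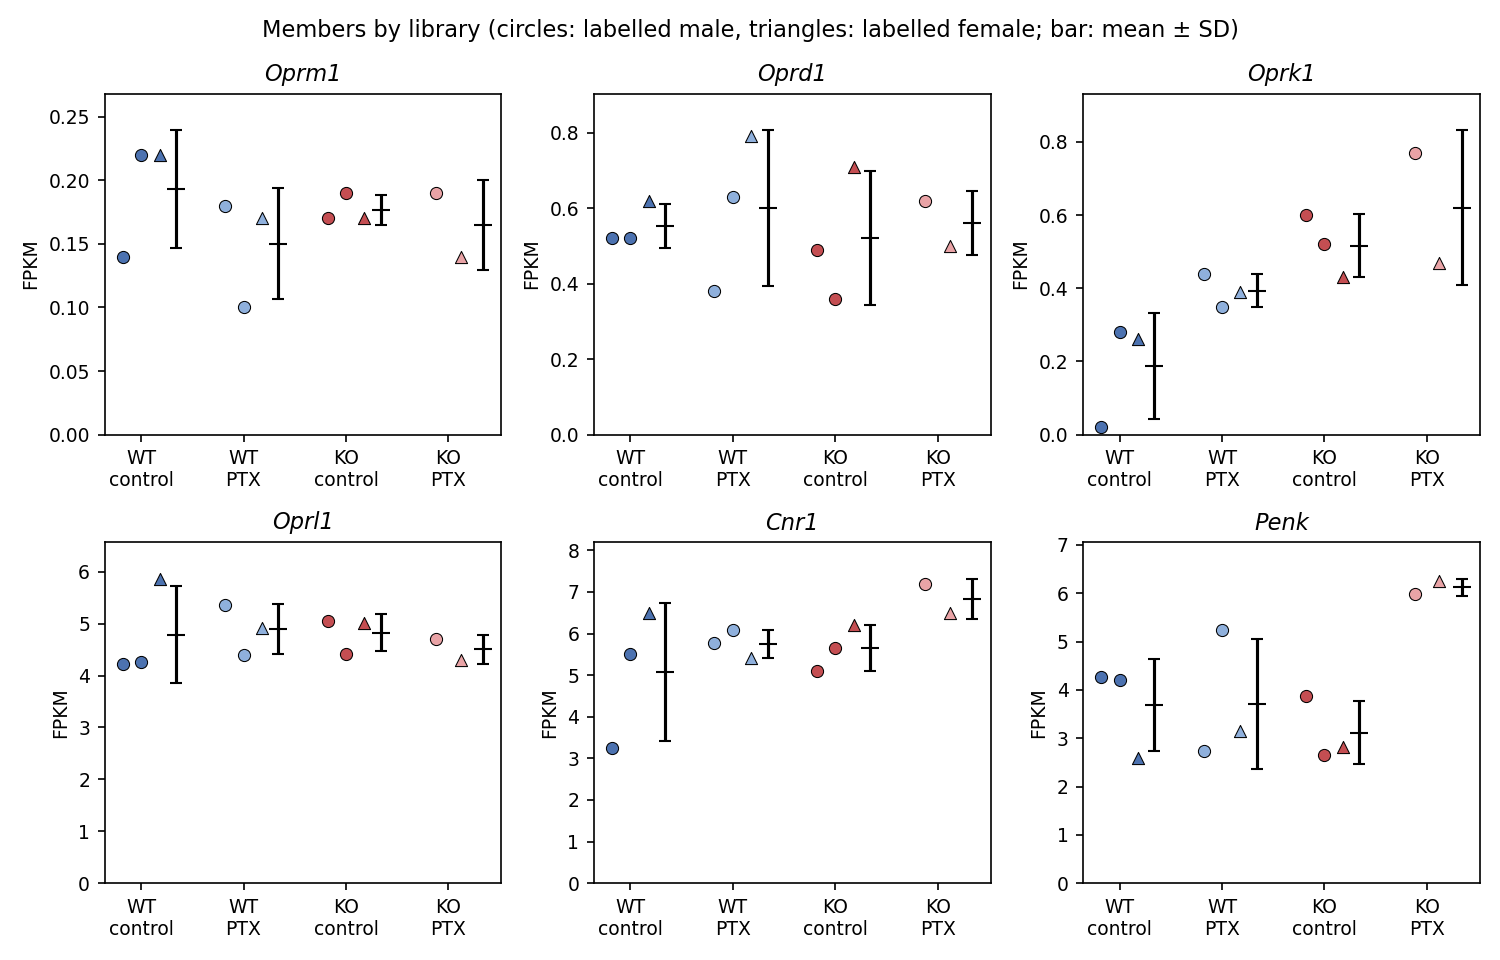
FPKM of the 6 genes (y axis, a separate scale per gene, each from 0) in every library of the 4 groups (x axis), with circles for libraries labelled male, triangles for those labelled female and bars for the mean ± SD. *Penk* is highest in the 2 KO PTX libraries (5.99 and 6.25), and *Oprk1* is lowest in WT control 1 (0.02).

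The nociceptin receptor gene made up most of the opioid receptor message. Summed over the 4 opioid receptor genes, FPKM ranged from 4.90 to 6.97, with a median of 6.27 over the 11 libraries. *Oprl1* contributed 74.8% to 86.1% of it, *Oprd1* 5.97% to 12.6%, *Oprk1* 0.408% to 12.3% and *Oprm1* 1.82% to 4.16%. Per longest annotated transcript, the shares were 67.1% to 83.1% for *Oprl1*, 4.54% to 9.75% for *Oprd1*, 0.666% to 17.9% for *Oprk1* and 4.70% to 10.4% for *Oprm1*, so *Oprl1* held the largest share on both scales while the order of the other 3 did not hold.

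**Figure D2:**
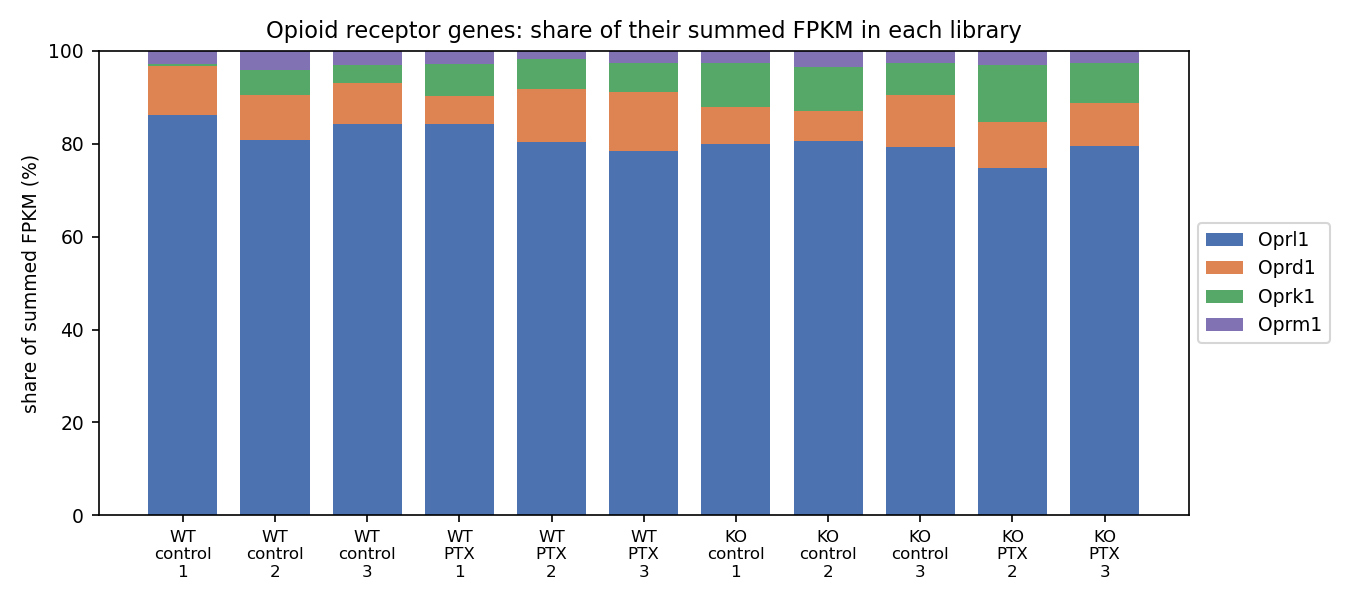
Share of the summed FPKM of the 4 opioid receptor genes (y axis, percent) held by each of them in each of the 11 libraries (x axis). *Oprl1* takes the largest part of every bar, from 74.8% to 86.1%, and the part of *Oprk1* is smallest in WT control 1, at 0.408%.

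Differences between groups were then tested with edgeR over 19977 genes, with genotype, treatment and labelled sex in the model. All 6 members entered the test and 0 of 6 passed an adjusted p of 0.05 in any of the 6 comparisons. The share of all genes that passed was 0.00501% for PTX in WT, 0.00501% for KO against WT in control mice, 0.00501% for PTX in KO, 0.0100% for KO against WT after PTX, 0.00501% for the difference of the PTX effect between genotypes and 0.0350% for female against male. DESeq2 also called 0 of 6, while it called 1.57%, 0.330%, 0.285%, 0.0701%, 0.200% and 0.641% of all genes in the same order. At an unadjusted p under 0.05, edgeR had 0, 1, 1, 1, 1 and 0 members, against 11.3%, 6.77%, 4.71%, 3.83%, 6.16% and 7.42% of all genes. The members behind those counts were *Oprk1* for KO against WT in control mice and *Penk* for the other 3. The comparisons share groups with one another, so they are not separate evidence. In whole ganglia, fewer cells of a type and less RNA per cell cannot be told apart.

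**Figure D3:**
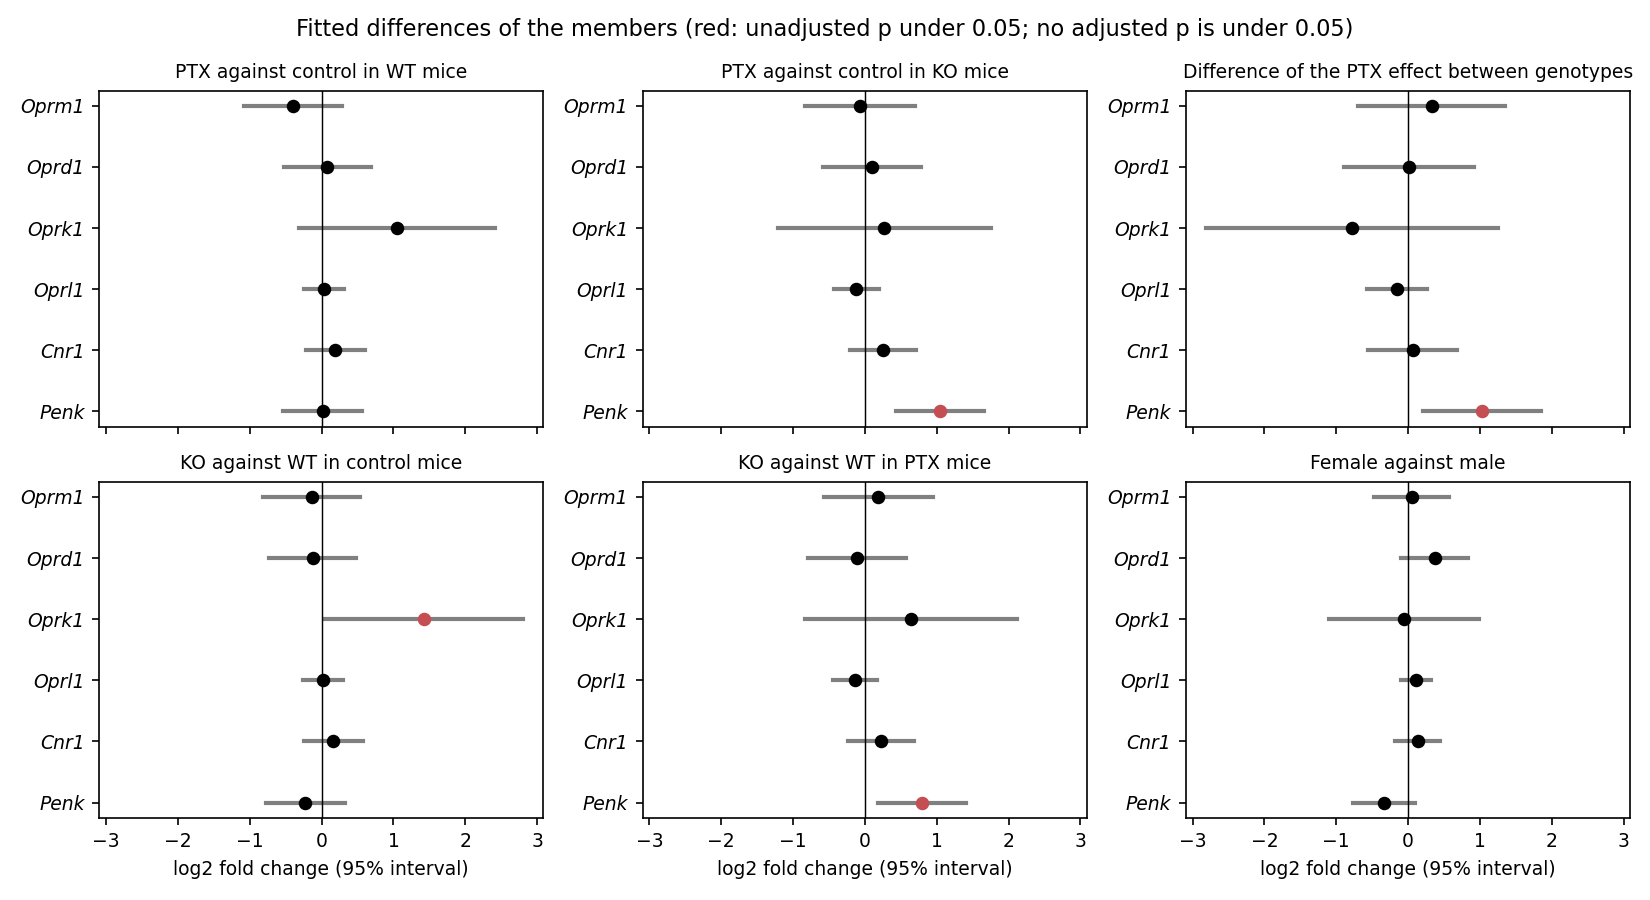
Fitted log2 fold changes (x axis, points) with 95% intervals (lines) of the 6 genes (y axis) in 6 comparisons (panels), in red where the unadjusted p was under 0.05. *Penk* after PTX in KO mice is at 1.04 with an interval of 0.43 to 1.65, and the intervals of *Oprl1* are the narrowest.

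*Penk*, the precursor gene, had the lowest unadjusted p of the members. In WT control libraries 1, 2 and 3 it stood at 4.26, 4.21 and 2.58 FPKM, and in WT PTX libraries 1, 2 and 3 at 2.74, 5.24 and 3.14 FPKM. In KO control libraries 1, 2 and 3 it stood at 3.87, 2.66 and 2.82 FPKM, and in KO PTX libraries 2 and 3 at 5.99 and 6.25 FPKM. The WT groups and the KO controls overlapped throughout, and both KO PTX libraries were above the other 9.

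In log2 terms, *Penk* differed by 1.04 (SE 0.28, 95% interval 0.43 to 1.65) between PTX and control in KO mice, a fold of 2.06 (edgeR quasi-likelihood test, unadjusted p = 0.00353, Benjamini-Hochberg adjusted p = 0.951). In WT mice the same difference was 0.02 (interval -0.54 to 0.57). Between KO and WT mice after PTX it was 0.80 (interval 0.18 to 1.41, edgeR adjusted p = 0.996), and between KO and WT controls -0.23 (interval -0.78 to 0.33). The difference of the PTX effect between genotypes was 1.03 (SE 0.37, interval 0.20 to 1.85, edgeR unadjusted p = 0.0197, adjusted p = 0.759). None of these passed after adjustment. Over its alternatives, the adjusted p for *Penk* after PTX in KO mice ran from 0.0634, with DESeq2, to 1.00, and the former was the lowest of any member in any setting.

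*Penk* and *Cnr1* were the 2 members whose KO PTX and KO control FPKM did not overlap, against 21.8% of all genes with groups of 2 and 3. An exact permutation test of such groups cannot go below p = 0.1, which *Penk* reached, with an adjusted p of 0.6 over 30 tests. Leaving out KO PTX 3 gave a log2 difference of 0.80 for *Penk* in KO mice, and leaving out KO PTX 2 gave 1.29, each resting on the 1 KO PTX library that remained and assuming that it varies like the other groups. Between KO and WT mice after PTX, the value without KO PTX 3 was 0.55 and without KO PTX 2 it was 1.05. With the mean of both genotypes, a comparison added after these values were seen, PTX against control was 0.53 (SE 0.19, edgeR adjusted p = 0.512).

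Both KO PTX libraries also had high sums of spinal cord markers, but over all libraries these sums followed *Penk* only in part. Neurons of the spinal dorsal horn, next to which the ganglia are dissected, also express *Penk*. The sum of 8 markers (*Gfap*, *Olig1*, *Olig2*, *Mog*, *Slc1a2*, *Slc6a5*, *Aldh1l1* and *Slc32a1*) was 9.13 and 17.3 FPKM in KO PTX libraries 2 and 3. It ranged from 2.79 to 4.69 in KO controls, 2.38 to 5.58 in WT PTX and 2.70 to 9.85 in WT controls, where the top value was that of WT control 1. In KO PTX 3, 7 of the 8 markers were at their highest of all libraries, with *Gfap* at 4.62, *Slc1a2* at 4.98, *Slc32a1* at 1.64, *Mog* at 1.30 and *Olig1* at 0.91 FPKM. In KO PTX 2, *Gfap* was 3.51, *Slc1a2* 2.26, *Slc32a1* 0.17, *Mog* 0.18 and *Olig1* 0.37 FPKM. *Slc6a5*, which marks glycinergic neurons, was at 0 there. *Slc32a1* and *Mog* of KO PTX 2 were below those of WT control 1 (0.20 and 0.33) and WT PTX 3 (0.21 and 0.26). Its *Olig1* and *Slc1a2* were above those of WT control 1 (0.22 and 1.90) and WT PTX 3 (0.12 and 1.74). *Gfap*, *Olig2* and *Aldh1l1* of KO PTX 2 (3.51, 0.07 and 2.57) were below those of WT control 1 (3.94, 0.08 and 3.18). They were above those of WT PTX 3 (0.98, 0 and 2.27). *Gfap*, *Slc1a2* and *Aldh1l1* were above 0 in every library, *Aldh1l1* at 1.84 to 3.25 FPKM. Over the 11 libraries *Penk* and this sum had a Pearson r of 0.71 and a Spearman correlation of 0.59. Without the 2 libraries whose sums lay farthest from the median, r was 0.59. These values are described without a test because the points share groups and libraries. WT PTX 2 had the lowest sum, 2.38, with *Penk* at 5.24 FPKM, and WT control 1 had 9.85 with *Penk* at 4.26 FPKM. The part of the markers in the *Penk* difference was not tested.

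**Figure D4:**
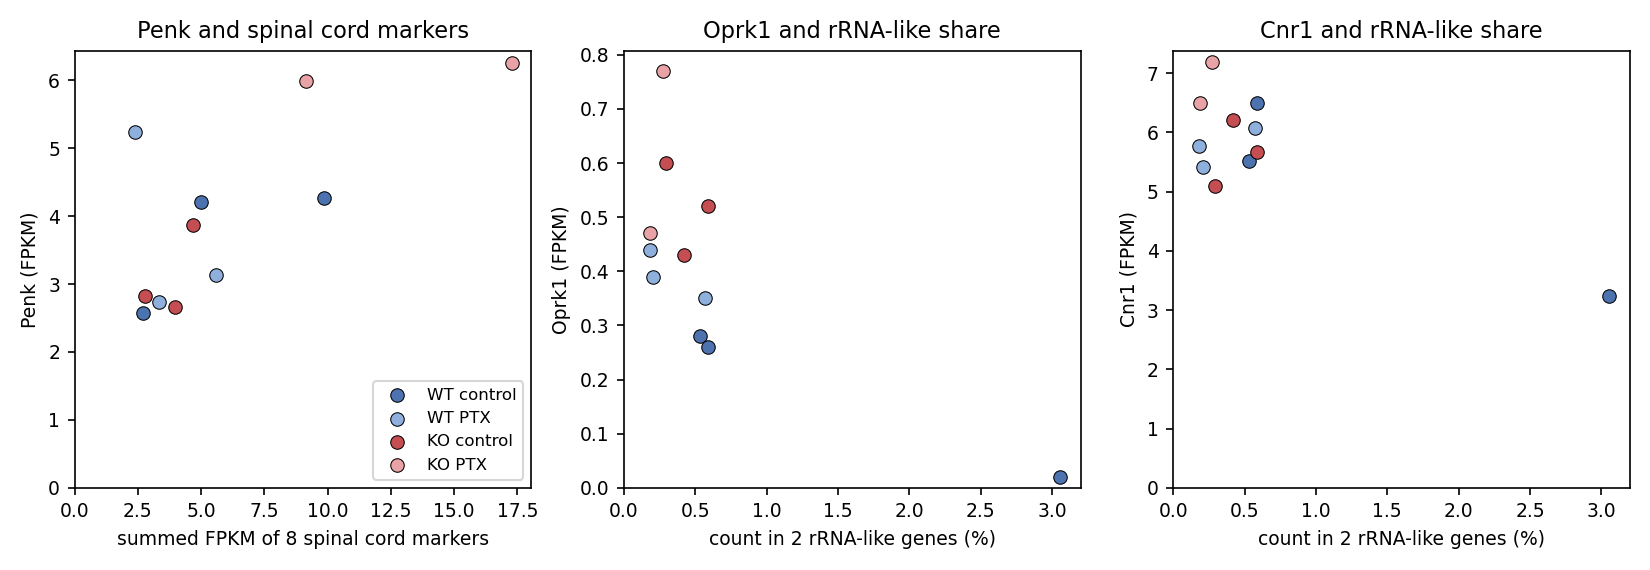
Left, *Penk* (y axis, FPKM) against the summed FPKM of 8 spinal cord markers (x axis). Middle and right, *Oprk1* and *Cnr1* (y axes, FPKM) against the share of counts in 2 rRNA-like genes (x axes, percent), with 1 point per library colored by group. The KO PTX libraries lie at 9.13 and 17.3 on the first x axis, and WT control 1 lies alone at 3.06% on the other 2.

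Among the other opioid precursor genes, none of which passed the test, levels were far lower than that of *Penk*. *Pdyn*, which encodes prodynorphin, ranged from 0.02 to 0.93 FPKM, and PTX against control in KO mice was 2.18 (SE 0.84, edgeR adjusted p = 0.995). That estimate rested on KO PTX 3, at 0.93 FPKM and 165 counts, which also had the highest spinal cord marker sum, while KO PTX 2 was at 0.15 FPKM and 26 counts beside 0.04 to 0.10 FPKM in KO controls. *Pomc*, which encodes the precursor of beta-endorphin, ranged from 0 to 0.70 FPKM on 0 to 55 counts, with the top value in KO PTX 2. Its KO against WT difference after PTX was 2.26 (SE 0.94, edgeR adjusted p = 0.996). *Pnoc*, which encodes the precursor of nociceptin, ranged from 0.06 to 0.39 FPKM on 9 to 69 counts. Its difference between PTX and control in WT mice was 1.46 (SE 0.66, edgeR adjusted p = 0.444). Message for the nociceptin receptor was above that for its ligand, with means over 11 libraries of 4.78 FPKM for *Oprl1* and 0.175 FPKM for *Pnoc*.

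*Oprk1*, the kappa receptor gene, had its lowest group mean in WT controls, with WT control 1 far below the other libraries. It stood at 0.02, 0.28 and 0.26 FPKM in WT control libraries 1, 2 and 3 and at 0.44, 0.35 and 0.39 FPKM in WT PTX libraries 1, 2 and 3. In KO it stood at 0.60, 0.52 and 0.43 FPKM in control libraries 1, 2 and 3 and at 0.77 and 0.47 FPKM in PTX libraries 2 and 3. WT controls were below each of the other groups without overlap, and WT PTX was below KO PTX without overlap, whereas the KO groups overlapped. WT control 1 held 11 counts of *Oprk1*, against 180 to 448 in the other libraries.

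Fitted over these libraries, *Oprk1* was higher in KO than in WT controls by 1.42 in log2 (SE 0.62, interval 0.05 to 2.80, edgeR unadjusted p = 0.0442, adjusted p = 0.732). PTX against control was 1.05 in WT mice (interval -0.32 to 2.42) and 0.27 in KO mice (interval -1.21 to 1.75), and KO against WT after PTX was 0.64 (interval -0.83 to 2.12). *Oprk1* was the 1 member without overlap for PTX in WT, against 13.1% of all genes, and for KO against WT in control mice, against 8.95%. After PTX, 3 members (*Oprk1*, *Cnr1* and *Penk*) did not overlap between KO and WT, against 20.0% of all genes. Without WT control 1, the log2 differences were 0.86 for KO against WT controls (SE 0.22, edgeR adjusted p = 0.908, in a range of 0.414 to 0.964 over the alternatives), 0.49 for PTX in WT and 0.66 for KO against WT after PTX. Over both treatments, a comparison added after the values of *Oprk1* were seen, KO against WT was 1.03 (SE 0.45, edgeR adjusted p = 1.00). Without WT control 1 it was 0.76 (SE 0.15, edgeR adjusted p = 0.507, the lowest of its alternatives). An exact permutation of the FPKM within treatment gave p = 0.005 for it, with an adjusted p of 0.06 over 12 tests, and is likewise a test of values already seen. The part of the rRNA-like share in the low *Oprk1* value of WT control 1 was not tested.

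*Oprl1*, the nociceptin receptor gene, varied least of the members, with a coefficient of variation over the 11 libraries below the 17.7% of *Cnr1*, the next lowest. It stood at 4.22, 4.27 and 5.87 FPKM in WT control, 5.37, 4.40 and 4.92 in WT PTX, 5.05, 4.42 and 5.01 in KO control, and 4.70 and 4.31 in KO PTX libraries. All 4 groups overlapped. Its 6 log2 estimates ran from -0.15 to 0.11, and the widest bounds of their 95% intervals were -0.57 and 0.32, folds of 0.674 and 1.25. Differences beyond those folds are therefore outside every interval, while smaller ones are not.

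*Oprd1*, the delta receptor gene, had group means of 0.52 to 0.60 FPKM, a narrower range than that of its libraries within any of the 4 groups. It stood at 0.52, 0.52 and 0.62 FPKM in WT control, 0.38, 0.63 and 0.79 in WT PTX, 0.49, 0.36 and 0.71 in KO control, and 0.62 and 0.50 in KO PTX libraries. The 4 groups overlapped, and in 3 of 4 groups the library labelled female was the highest. Female against male was 0.37 in log2 (SE 0.21, interval -0.09 to 0.83, edgeR unadjusted p = 0.106, adjusted p = 0.728), and without KO control 3, which carried neither sex marker, it was 0.25. With the replicate numbers of the titles as a block beside sex, it turned to -0.39. In that model only the KO PTX libraries set sex apart from number. The other 5 estimates of *Oprd1* lay between -0.13 and 0.10. By the numbers of the descriptions, the library labelled female is replicate 3 in each group, so sex and that number cannot be told apart.

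*Oprm1*, which encodes the main target of morphine, was scarce in every library. It stood at 0.14, 0.22 and 0.22 FPKM in WT control, 0.18, 0.10 and 0.17 in WT PTX, 0.17, 0.19 and 0.17 in KO control, and 0.19 and 0.14 in KO PTX libraries, on 66 to 142 counts each. The groups overlapped. Estimates ran from -0.39 (PTX in WT) to 0.33, the latter for the difference of the PTX effect between genotypes, where the interval reached 1.35. In the 5 comparisons between groups or sexes, the lowest bound was a fold of 0.475 and the upper bounds were folds of 1.22 to 1.93. The antisense gene *Ipcef1* was itself at 0.09 to 0.27 FPKM, a level like that of *Oprm1*.

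*Cnr1*, the cannabinoid receptor gene, stood at 3.24, 5.51 and 6.49 FPKM in WT control and 5.77, 6.08 and 5.41 in WT PTX libraries. It stood at 5.09, 5.66 and 6.21 in KO control and 7.18 and 6.49 in KO PTX libraries. WT control 1 was the lowest of all 11, and the KO PTX libraries were above the KO control and WT PTX libraries but not above WT control 3, which matched one of them. In log2, PTX against control was 0.19 in WT mice (interval -0.22 to 0.60) and 0.25 in KO mice (interval -0.21 to 0.71), and KO against WT was 0.16 in control mice and 0.23 after PTX (interval -0.23 to 0.69). Without WT control 1, PTX in WT turned to -0.04 and KO against WT controls to -0.07, while PTX in KO mice was 0.26 (edgeR adjusted p = 0.791, in a range of 0.693 to 1.00 over the alternatives). *Cnr2*, which encodes the cannabinoid receptor CB2 of immune cells, ranged from 0 to 0.11 FPKM.

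The 6 genes sit in a signaling pathway whose processing enzymes and G proteins were more abundant. A list of 66 genes in 10 roles was drawn up for it, the members included, and 65 were tested. Among enzymes that process the precursors, *Cpe* (carboxypeptidase E) averaged 314 FPKM over the 11 libraries (290.5 to 346) and *Pcsk2* (prohormone convertase 2) averaged 28.0 ± 1.17. Among transducers, the G protein subunit gene *Gnb1* averaged 184 ± 9.06, *Gnao1* 79.9 ± 9.98 and *Gnai2* 66.6 ± 6.04 FPKM. *Rgs4*, which speeds the shut-off of Gi/o signals, averaged 397 ± 46.0 FPKM and was the most abundant gene of the list. On the endocannabinoid side, *Dagla*, which makes 2-arachidonoylglycerol, averaged 4.59 ± 0.505 FPKM, and *Mgll*, which breaks it down, 17.7 ± 2.52 FPKM. *Trpv1*, the capsaicin receptor gene that anandamide also activates, averaged 41.6 ± 5.31 FPKM.

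**Figure D5:**
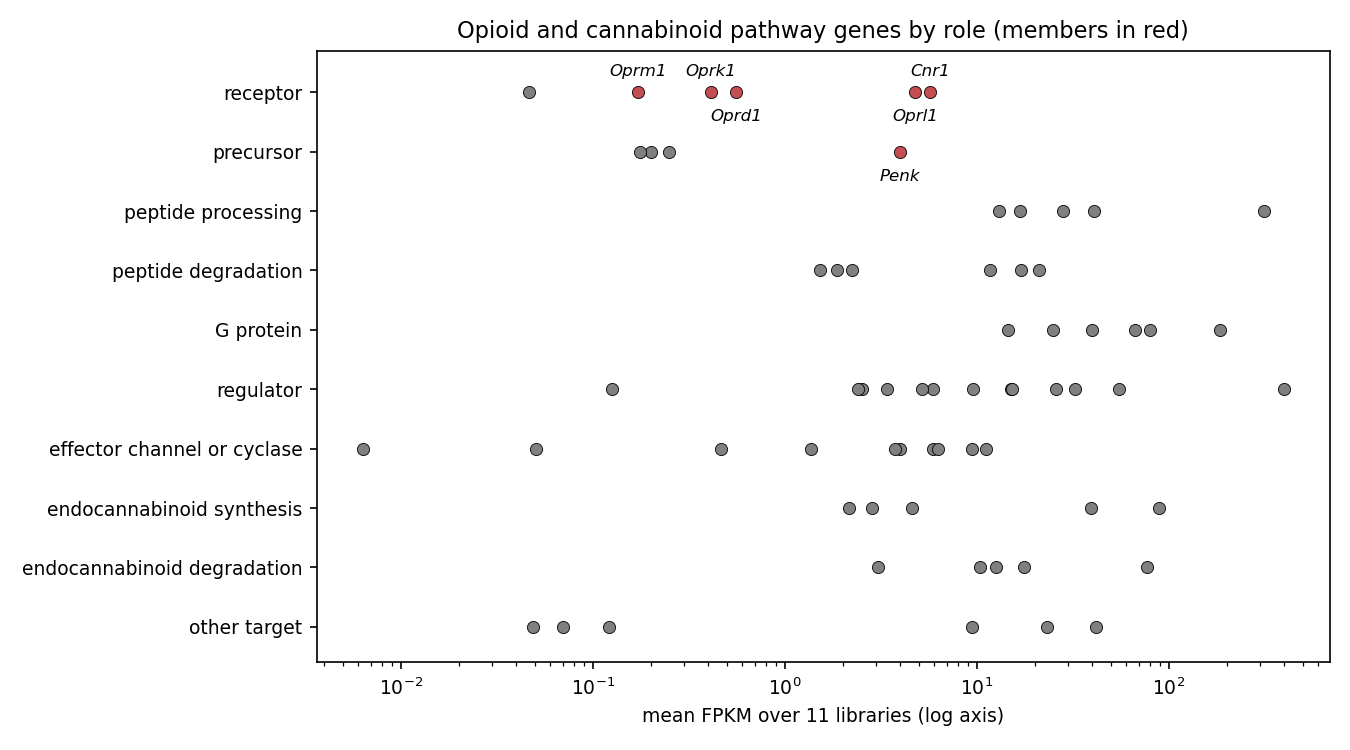
Mean FPKM over 11 libraries (x axis, log scale) of the genes of the opioid and cannabinoid pathway list by role (y axis), with the 6 genes described here in red. The receptors lie between 0.0464 (*Cnr2*) and 5.74 (*Cnr1*), below all of the processing enzymes and G protein genes.

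Of the 65 pathway genes tested, 0 passed an adjusted p of 0.05 by edgeR in any of the 6 comparisons. At an unadjusted p under 0.05, PTX in WT mice had 7 higher and 5 lower, 18.5% of the list beside 11.3% of all genes, with a list median of 0.02 beside -0.02 for all genes. Female against male had 7 higher and 4 lower, 16.9% beside 7.42%. KO against WT controls had 2 higher and 3 lower (7.69% beside 6.77%), and PTX in KO mice 2 higher and 1 lower (4.62% beside 4.71%). KO against WT after PTX had 3 higher and 0 lower (4.62% beside 3.83%), and the difference of the PTX effect 3 higher and 1 lower (6.15% beside 6.16%). The lowest adjusted p values of the list were both for PTX in WT mice. *Ogfr*, which encodes the opioid growth factor receptor, was at -0.43 (SE 0.09, edgeR adjusted p = 0.242), and *Gprasp1*, which encodes a protein that sorts opioid and cannabinoid receptors for degradation, was at 0.28 (SE 0.06, edgeR adjusted p = 0.243).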

How the data were processed

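Total RNA of mouse DRGs was sequenced in 11 libraries. The submitters' processing notes name cutadapt, FastQC, HISAT2, StringTie and the build mm10. The authors deposited 1 table with FPKM values and estimated counts per gene and library, and the counting step was not given in the sources used here. Estimated counts were rounded to whole numbers. Genes with a mean count of at least 10 (19977) were kept, scaled by TMM and tested with edgeR 4.0.16 (quasi-likelihood, Benjamini-Hochberg adjustment, R 4.3.3) in 1 model of 4 groups and sex. The method was tested on simulated data. DESeq2 1.42.0, limma 3.58.1, other filters and scalings, replicate blocks and left-out libraries were the alternatives. Levels were compared by exact tests on log2(FPKM + 0.1). Sequences and coordinates came from GENCODE M21 (GRCm38), aligned with MAFFT 7.526. The genes described are the 6 members in every comparison, the other precursor and cannabinoid receptor genes, the 3 most abundant genes of each pathway role and those with its lowest p, and the 3 genes most correlated with each member. Members and lists were chosen with earlier results of these data known. For KO PTX, titles number the libraries 1 and 2 and descriptions 2 and 3. The descriptions were used. Precision is limited by 2 or 3 libraries per group. The counts behind each library's members are given with the results where they are low.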

Additional observations from a re-analysis of the deposited data

How the results depend on the processing

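No member passed an adjusted p of 0.05 in any of 1052 estimates over all settings and comparisons. Of the alternative log2 fold changes of single members, 960 lay within the standard error of the first fit around its estimate. Another 44 moved farther, and none concerned a call. Where that error is large, as for *Oprk1*, large shifts also count as within it. Some estimates changed sign in them, and not only those near 0. *Oprk1* for the difference of the PTX effect, at -0.78, reached 0.02 and kept its sign in 19 of 20 alternatives. *Oprd1* in female against male, at 0.37, reached -0.39 and kept its sign in 18 of 19. Over all genes, edgeR and DESeq2 called 1 and 314 for PTX in WT, 1 and 66 for KO against WT controls, 1 and 57 in KO mice with PTX against control, 2 and 14 when genotypes were compared after PTX, 1 and 40 for the difference between genotypes, and 7 and 128 for sex. Requiring a mean FPKM of 0.5 dropped *Oprm1* and *Oprk1*, which have no value there. Of the 5 neighbouring pairs in the order of levels, 2 held in every WT control library, 1 in all 11 libraries, 1 per longest annotated transcript in either set, and 2 to 5 with each WT control left out. The 5 came without WT control 1, when *Oprk1* moved above *Oprm1*, on 2 libraries. Deviations from the group mean had correlations of -0.09 to 0.107 between libraries with the same number. With 2 or 3 libraries per group and unlike numbers not compared, these cannot decide whether the numbers pair libraries. With the replicate block 0 members passed, and *Penk* after PTX in KO mice was 1.02, or 0.85 with the numbers of the titles. Leaving out KO control 3 gave -0.37 for *Penk* and 0.12 for *Cnr1* in female against male, beside -0.34 and 0.13 with it. Leaving out WT control 1 and KO PTX 3 together, added after their values were seen, gave 0.81 for *Penk* after PTX in KO mice and 0.88 for *Oprk1* in KO against WT controls. Groups of 2 or 3 libraries and the low counts of *Oprm1* limit what could be detected.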

Other observations

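Patterns across the 11 libraries were described by the Pearson r of log2 depth-scaled counts, without a test, since the points share groups and depth. The search covered 13066 genes with a mean of at least 1 FPKM. As the highest of so many, the r values given here are high in part through the choice. Genes most like *Penk* were *Fbxl18* (r = 0.92), *Fam122a* (0.91) and *Fjx1* (0.90). Without WT control 1 these were 0.90 to 0.92, on the other libraries that had picked them. The genes most like *Oprl1* were *Snapc1* (0.90), *Zmym4* (0.88) and *Fam234b* (0.86). *Oprm1* lay closest to *Lpcat1* (0.93), *Gm12112* (0.82) and *Cnnm2* (0.81), and *Oprd1* to *Ep400* (0.84), *Capn10* (0.79) and *Nmrk1* (0.79).

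For *Oprk1* and *Cnr1* the likeness leaned on WT control 1. *Oprk1* lay closest to *Golph3* (0.98), *Camsap2* (0.97) and *Map2k4* (0.96), which became 0.78, 0.87 and 0.73 without that library. *Cnr1* lay closest to *Gm2007* (0.96), *Nup98* (0.96) and *Siae* (0.94), which became 0.82, 0.79 and 0.81. Between the members, *Oprk1* and *Cnr1* had r = 0.86 with WT control 1 and 0.19 without it. *Oprl1* and *Penk* ran in opposite directions, with r = -0.69 both with and without that library.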
